A study of Mus musculus with 4 samples.

Results

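The genes described here are 9 regulators of apoptosis, Cflar, Pawr, Pdcd10, Casp8, Fadd, Bcl2l1, Mcl1, Bax and Xiap, read as every probe set that carried exactly 1 of these symbols. The array held 11 such probe sets for 8 of the 9 genes, out of 21640 probe sets with 1 gene symbol for 19937 genes. Bax, a pore-forming member of the BCL2 family, had no probe set among them and was not analysed here. Cflar had 3 probe sets and Pdcd10 had 2, and these were kept apart because they differed. Cflar, Pawr and Pdcd10 were chosen because their signal on the Msi1 array exceeded that on the other arrays, so their excess is given as a description. The other 6 genes were added as partners or further regulators of the same process.

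The starting material was intestinal epithelium of adult mice of strain C57BL/6, treated with ultraviolet light to link RNA to bound protein, and RNA from it was hybridised to 4 Affymetrix MoGene 1.0 ST arrays. The first array carried RNA precipitated with an antibody to Msi1 (Musashi1), an RNA-binding protein of intestinal and neural progenitor cells. The second carried RNA precipitated with an antibody to an hnRNP, a family of nuclear proteins that package transcripts, and the labels do not say which hnRNP it was. The third was a nonspecific IgG precipitation, and the fourth was input RNA with no precipitation. Each group was 1 array, made from RNA combined from 2 independent experiments, and no further genotype or treatment was given for the mice. There was therefore no spread between replicates. The number of arrays limits precision, and differences are given by size with no test.

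Apoptosis can start at death receptors of the cell surface, where the adaptor Fadd recruits the initiator caspase Casp8, and Cflar, a relative of Casp8 without caspase activity, controls its activation in that complex. It can also start at mitochondria, where Bcl2l1 and Mcl1 hold back the pore-forming proteins Bax and Bak1, and where released cytochrome c activates Casp9 on Apaf1. Xiap then binds and inhibits caspases directly. Pawr (Par-4) is a leucine zipper protein that promotes apoptosis, and Pdcd10 (CCM3) is an adaptor of kinase complexes known mainly for its role in blood vessels. In the gut epithelium, death receptor signalling and its restraint by Casp8 and Cflar are known to decide the survival of crypt and villus cells.

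Values are log2 signals per probe set. A value was called detected when it exceeded the array's floor, set at the 95th percentile of 1208 probe sets of odorant and vomeronasal receptors, which are genes of sensory neurons. These floors were 4.74 on Msi1, 5.17 on hnRNP, 5.26 on IgG and 4.09 on input. All 11 probe sets exceeded the floor on input, 8 did so on Msi1, 2 on hnRNP and 2 on IgG. Of all probe sets with 1 symbol, 47.4% exceeded the floor on Msi1, 32.3% on hnRNP, 27.5% on IgG and 59.0% on input. All 8 markers of intestinal epithelium sought, among them Vil1, Epcam and Cdx2, were detected on Msi1 and on input, with 6 detected on hnRNP and 5 on IgG. Of 5 leukocyte markers found, 1 was detected on Msi1, 2 on hnRNP, 2 on IgG and 4 on input, and of 6 markers of stroma, muscle and vessels 5 were detected on Msi1, 3 on hnRNP, 3 on IgG and 3 on input. Of 3 markers of enteric neurons and glia found, 1 was detected on Msi1 and 0 on each other array. These counts depend on the unequal floors. The neural marker detected, Uchl1, read 4.79 on Msi1 but 5.08 on hnRNP and 5.12 on IgG. Of the stromal markers, Col1a1, Col3a1, Acta2 and Pecam1 read lower on Msi1 than on IgG, while Des and Vim read higher. The part of these cell types in the results was not tested. In such mixed tissue fewer cells of a type and less RNA per cell cannot be told apart.

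**Figure D1:**
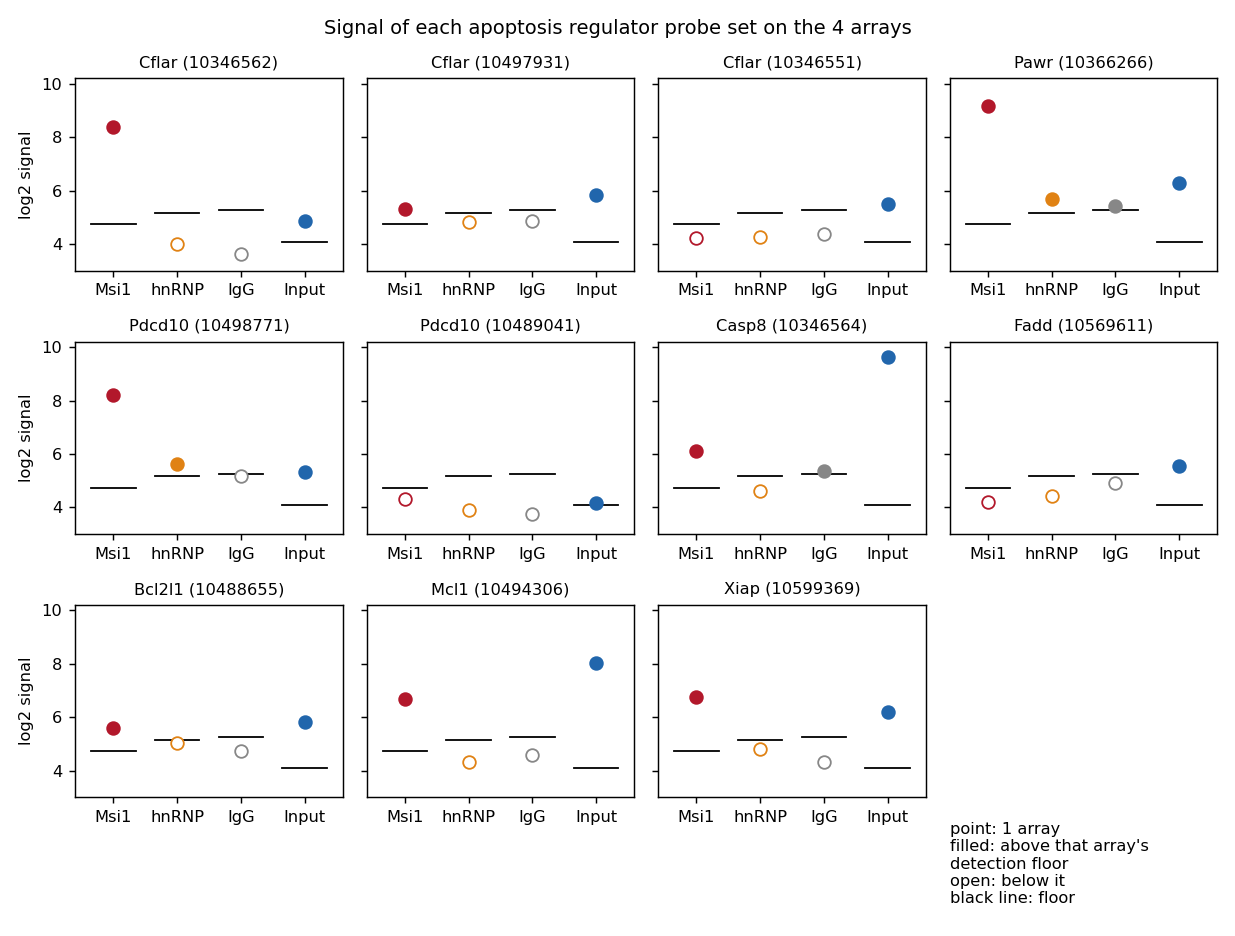
Log2 signal (vertical axis) of each of the 11 probe sets on the Msi1, hnRNP, IgG and input arrays, 1 panel per probe set, with the probe set ID in brackets. Black lines are the arrays' detection floors and open points lie below them. The first Cflar probe set, Pawr, the first Pdcd10 probe set and Xiap are highest on Msi1. So is the second Pdcd10 probe set, though below the Msi1 floor. The other Cflar probe sets, Casp8, Fadd, Bcl2l1 and Mcl1 are highest on input.

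Cflar signal was far higher on Msi1 than on every other array for 1 of its 3 probe sets, and for neither of the others. Probe set 10346562 read 8.37 on Msi1, 4.02 on hnRNP, 3.61 on IgG and 4.86 on input. Among the precipitations it was detected on Msi1 alone, since the hnRNP and IgG values stood at −1.15 and −1.65 relative to their floors. The excess of Msi1 was 4.36 log2 units over hnRNP, 4.76 over IgG and 3.52 over input. As a fold this was at least 9.24-fold over hnRNP, at least 8.63-fold over IgG, and 11.5-fold over input, where the dimmer value was itself above the floor.

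The other Cflar probe sets gave another picture. Probe set 10497931 read 5.30 on Msi1, 4.82 on hnRNP, 4.85 on IgG and 5.83 on input. Probe set 10346551 read 4.22, below the floor, on Msi1, with 4.27 on hnRNP, 4.36 on IgG and 5.48 on input. Neither was 2-fold higher in Msi1 than in any other array. Against IgG they differed by 0.45 and −0.14, and against input by −0.52 and −1.27, the last being at least 1.68-fold lower in Msi1 against the Msi1 floor. As the mean of all 3 probe sets, Cflar exceeded IgG by 1.69 and input by 0.58, and as the probe set brightest on input it differed from input by −0.52.

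The probe sets also differed in what they were annotated to. The 4 RefSeq transcripts listed for probe set 10346562 were all listed for the other 2 as well, and that probe set listed no other accession, whereas 10497931 listed 10 accessions, 5 of them RefSeq transcripts, and 10346551 listed 9. Over the array, 97.2% of probe sets with a gene in the RefSeq table had at least 10 of their 20 nearest named neighbours by ID on the chromosome of their own gene. This held for 10346562 and 10346551, with 19 of 20 each, but for 10497931 the number was 0 of 20. Probe set 10497931 may therefore not read the Cflar gene, and the mean over the 3 probe sets is open to the same doubt. Probe set 10346551, which was not high on Msi1, lay among the neighbours of 10346562, which was.

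Pawr showed the same order of arrays on its single probe set, 10366266. It read 9.18 on Msi1, 5.68 on hnRNP, 5.43 on IgG and 6.27 on input. The probe set was detected on all 4 arrays, which makes it the only member whose excess rests on no value below a floor, although its IgG value lay just 0.17 above the floor. The excess of Msi1 was 3.50 over hnRNP (11.3-fold), 3.74 over IgG (13.4-fold) and 2.91 over input (7.51-fold).

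Pdcd10 was high on Msi1 on 1 of its 2 probe sets. Probe set 10498771 read 8.20 on Msi1, 5.64 on hnRNP, 5.19 on IgG and 5.33 on input. The excess of Msi1 was 2.56 over hnRNP (5.90-fold), 3.01 over IgG (at least 7.63-fold, the IgG value standing at −0.08 relative to its floor) and 2.86 over input (7.27-fold). Probe set 10489041 read 4.33 on Msi1, 3.89 on hnRNP, 3.75 on IgG and 4.15 on input, and was thus detected only on input, where it exceeded the floor by 0.06. This second probe set had 0 of 20 ID neighbours on the chromosome of Pdcd10, against 19 of 20 for the first, so it may not read the Pdcd10 gene.

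Disagreement between the probe sets of a gene was common on these arrays. Of 480 genes with more than 1 probe set detected on Msi1 or IgG, 269 had at least 1 with a 2-fold excess of Msi1 over IgG, and in 90 of them (33.5%) all detected probe sets had it. In the 372 genes that had probe sets of both kinds, 163 of 374 (43.6%) with fewer than 10 of 20 ID neighbours on the gene's chromosome had a 2-fold excess of Msi1 over IgG, as did 137 of 303 (45.2%) with 10 or more. Against input the shares 2-fold higher in Msi1 were 8.99% and 12.4%, with median differences of −1.17 and −0.84. These are values over many genes and do not settle what the single Cflar and Pdcd10 probe sets read.

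Casp8, the initiator caspase that Cflar regulates, had the opposite profile relative to input. Probe set 10346564 read 6.12 on Msi1, 4.63 on hnRNP, 5.35 on IgG and 9.63 on input. It was detected on Msi1, IgG and input, so the IgG precipitation also gave signal slightly above background, by 0.09. Msi1 exceeded IgG by 0.77, short of 2-fold, and exceeded hnRNP by 1.5, which is at least 1.94-fold. Relative to input, Casp8 was 11.4-fold lower in Msi1 (−3.51). This difference was −2.00 with quantile normalization and −1.96 with loess centring. In the RefSeq gene table Casp8 and Cflar lie on the same chromosome with 1 gene starting between them, so the member closest to Cflar in the genome did not share its excess over input.

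Fadd, the adaptor that joins Casp8 to death receptors, was not detected in any precipitation. It read 4.20 on Msi1, 4.41 on hnRNP, 4.92 on IgG and 5.55 on input. The Msi1 value was at least 1.76-fold below input, and the differences from hnRNP and IgG, −0.21 and −0.72, are between values below their floors.

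**Figure D2:**
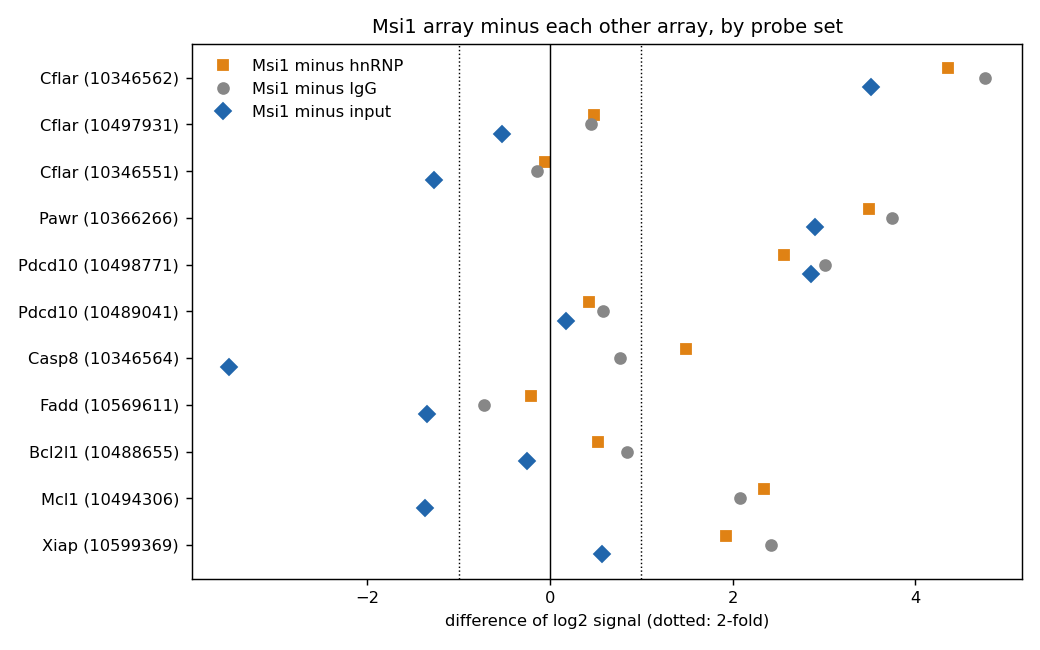
Difference of log2 signal (horizontal axis) between the Msi1 array and the hnRNP, IgG and input arrays for each of the 11 probe sets, with dotted lines at 2-fold. The 3 markers lie together beyond 2-fold for the first Cflar, Pawr and first Pdcd10 probe sets, and lie furthest apart for Casp8, from −3.51 against input to 1.5 against hnRNP.

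Among the inhibitors of the mitochondrial pathway and of caspases, Mcl1 and Xiap exceeded hnRNP and IgG by more than 2-fold and Bcl2l1 exceeded them by less. All 3 were below the floor on hnRNP and IgG. Mcl1, a short-lived antiapoptotic BCL2 protein, read 6.67 on Msi1, 4.32 on hnRNP, 4.59 on IgG and 8.04 on input. The excess of Msi1 was at least 2.83-fold over hnRNP (2.35) and at least 2.65-fold over IgG (2.08), and Msi1 was 2.58-fold below input (−1.37). Xiap read 6.75 on Msi1, 4.82 on hnRNP, 4.32 on IgG and 6.18 on input. Its excess was at least 2.99-fold over hnRNP (1.93), at least 2.80-fold over IgG (2.42) and 1.48-fold over input (0.57). Bcl2l1, which encodes the antiapoptotic protein Bcl-xL, read 5.58 on Msi1, 5.05 on hnRNP, 4.73 on IgG and 5.83 on input. Its Msi1 value was at least 1.33-fold over hnRNP (0.53) and at least 1.25-fold over IgG (0.85), and differed from input by −0.25. With quantile normalization Bcl2l1 passed 2-fold over IgG (1.15) and differed from input by 0.36.

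Counted together, 5 of the 8 probe sets detected on Msi1 or IgG showed an excess of Msi1 of at least 2-fold and 0 were lower by as much. Over all 11164 probe sets with 1 symbol that met the same condition, 19.8% were higher and 7.04% were lower. Of the 8, 6 passed the floor on Msi1 alone, so the count follows in part from the condition, and 3 of the 5 are the probe sets for which the genes were chosen. Against hnRNP, 6 of 8 were higher and 0 lower, where 18.6% of 11504 probe sets were higher and 7.94% lower. Of the 6, Casp8 was only at least 1.94-fold higher, since its hnRNP value lay below the floor. With values raised to the floor 5 of 8 were higher than hnRNP, beside 11.6% of all. The comparisons with IgG and with hnRNP share the Msi1 array. Detection on both arrays was met by only Pawr and Casp8 against IgG and by only Pawr and Pdcd10 against hnRNP, and then 1 of 2 and 2 of 2 were higher.

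Against input, where all 11 probe sets could be compared, 3 were higher in Msi1 by at least 2-fold and 4 were lower by at least 2-fold. The lower ones were Casp8, Mcl1, Fadd and the Cflar probe set 10346551. The background was 11.9% higher and 38.7% lower of 13834 probe sets. With quantile normalization or loess centring the split was 4 higher and 3 lower, because Xiap passed 2-fold (1.28 and 1.81) while Mcl1 stood at −0.03 and 0.12. Over all probe sets the shares were then 12.6% higher and 19.5% lower with quantile normalization, and 15.6% higher and 22.5% lower with loess centring. The standard deviation over all probe sets was 2.01 on input and 1.38 on Msi1, so differences between these arrays depend on how the arrays are scaled. The first Cflar probe set, Pawr and the first Pdcd10 probe set exceeded input by at least 2.61 under each of the 4 scalings compared.

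**Figure D3:**
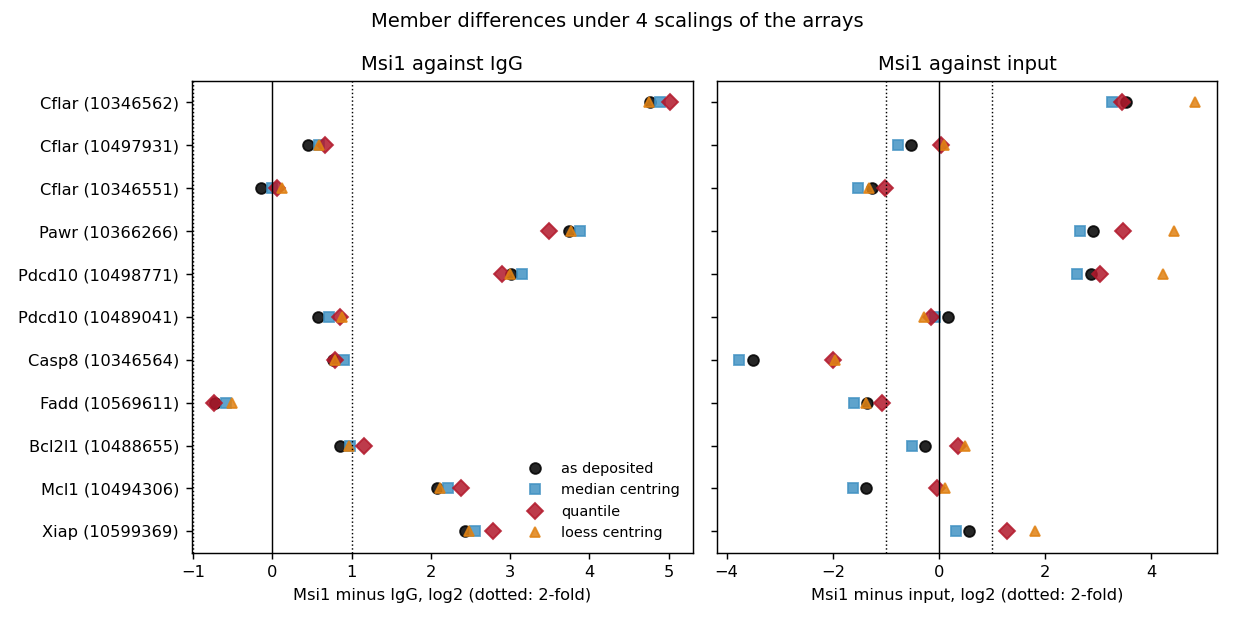
Difference of log2 signal (horizontal axis) of Msi1 from IgG (left) and from input (right) for each of the 11 probe sets, as deposited and under median centring, quantile normalization and loess centring, with dotted lines at 2-fold. Against IgG the markers of a probe set lie close together, while against input they spread more, for Pawr from 2.65 to 4.44 and for Mcl1 from −1.62 to 0.12.

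The probe sets higher in Msi1 than in all 3 other arrays were the first Cflar, Pawr and first Pdcd10 probe sets. This is the pattern for which the genes were chosen, and 182 of 14705 probe sets detected on any array (1.24%) showed it. By size of the difference from input they stood at positions 4, 19 and 21 of 13834, and by the difference from IgG at positions 42, 155 and 335 of 11164. These positions depend in part on background where the dimmer value lay below its floor. With quantile normalization Xiap joined them, and 4 member probe sets showed the pattern beside 2.83% of all. With loess centring these were again 4, beside 4.17%, and with median centring 3, beside 0.904%.

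Between hnRNP and IgG no detected member passed 2-fold. Of the 3 probe sets detected on either array, 0 were at least 2-fold higher or lower, where 6.58% of 8430 probe sets were higher and 4.76% lower. Pawr differed by 0.24, Pdcd10 by 0.45 and Casp8 by −0.72. Casp8 passed 2-fold lower with quantile normalization (−1.04). For scale, among receptor probe sets, which should carry no signal, the central 95% of differences ran from −1.41 to 1.27 for hnRNP minus IgG. It ran from −1.57 to 0.74 for Msi1 minus IgG and from −0.42 to 1.62 for Msi1 minus input. Against input the receptor median was 0.57, and 21.0% of the receptor probe sets passed 2-fold upwards. The Xiap excess over input (0.57) lay inside that last range, though Xiap was above both floors. The first Cflar, Pawr and first Pdcd10 probe sets (3.52, 2.91 and 2.86) lay above it.

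**Figure D4:**
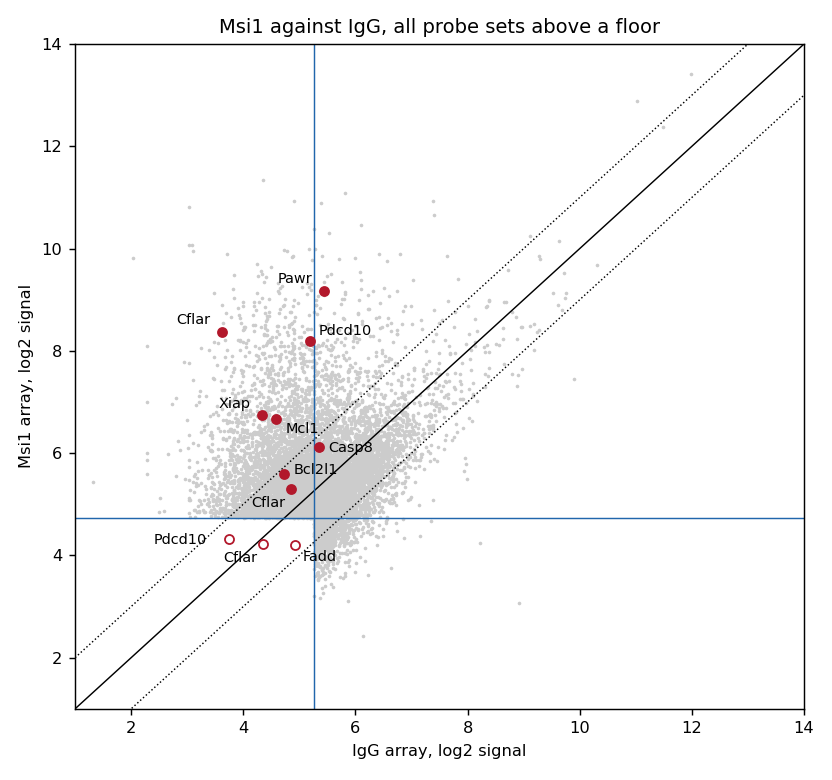
Log2 signal on the Msi1 array (vertical axis) against the IgG array (horizontal axis) for the 11164 probe sets detected on either array (grey) and for the members (red, open where below both floors). The solid diagonal marks equal signal, dotted lines mark 2-fold and blue lines mark the floors, and of the 5 members above the upper dotted line only Pawr lies right of the IgG floor.

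The probe sets most like these 3 in pattern were sought among 14052 probe sets by the root mean square difference over the 4 arrays, after each was centred on its own mean. For Cflar the nearest was Prdm2, at 0.22 log2 units, with signals of 8.01 on Msi1, 4.13 on hnRNP, 3.71 on IgG and 4.55 on input. The second was Pawr, at 0.39, and the third Dcun1d1, at 0.42. For Pawr the nearest were Mpp7 (0.17), Atp13a3 (0.18) and Ptges3 (0.20), with Cflar at position 7 and Pdcd10 at position 10. For Pdcd10 they were Selenok (0.15), Taf13 (0.17) and Psma3 (0.18), with Pawr at position 12 and Cflar at position 106. The 3 genes were chosen for a high Msi1 signal, so their likeness to each other follows in part from that choice. The hnRNP and IgG values of this Cflar probe set also lay below the floors. Likeness over 4 arrays with 1 value each has no measure of error.

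The members were set beside other genes of the pathway in 11 lists of ligands, receptors, caspases, BCL2 proteins, inhibitors and partners, which held 77 probe sets of 71 genes. Of 55 probe sets detected on Msi1 or IgG, 22 (40.0%) had at least a 2-fold excess of Msi1 and 1 (1.82%) was lower, beside 19.8% and 7.04% of all such probe sets. The counts of each list against IgG, given below, have the same 19.8% and 7.04% of all probe sets beside them. A probe set called higher can have a lower bound under 2-fold. The median difference of the 55 was 0.67, against 0.09 over all 11164. With quantile normalization 26 were higher and 5 lower, beside 23.7% and 15.1% of all. Of the 55, 58.2% passed the floor on Msi1 alone, against 46.7% of all. With values raised to the floor 12 of the 55 had a 2-fold excess of Msi1, beside 11.5% of all. Against input 8 of 70 (11.4%) were higher and 31 (44.3%) lower, beside the 11.9% and 38.7% of all probe sets.

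Death ligands and receptors differed from the control precipitation by less than 2-fold in all but 1 detected case. Of 7 detected, 1 passed 2-fold upwards in Msi1 over IgG and 0 downwards, with a median of −0.53. The higher one was Tnfsf10, which encodes the death ligand TRAIL, with 5.23 on Msi1, 3.92 on hnRNP, 3.80 on IgG and 7.94 on input. Its Msi1 value lay below the IgG floor, so no fold is given. Tnfrsf1b and Tnfrsf21 differed by 0.37 and 0.26, and Tnf and the lymphotoxin receptor gene Ltbr by −0.89 and −0.92.

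The adaptors and kinases of death receptor complexes had a median of 0.20, with 1 of 6 higher and 1 lower. Cyld, a deubiquitinase of the TNF receptor complex, was at least 1.70-fold higher (1.59). Ripk3, the kinase of necroptosis, was at least 1.80-fold lower (−1.22), with 4.36 on Msi1, 5.25 on hnRNP, 5.58 on IgG and 6.57 on input. It was the probe set of these lists that was called lower in Msi1. Its substrate Mlkl differed by 0.82, Tradd by 0.22 and Traf2 by −0.47.

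Of 4 caspases detected beside Casp8, 2 were higher in Msi1 than in IgG. The effector caspase Casp6 read 6.57 on Msi1, 4.96 on hnRNP, 4.49 on IgG and 9.69 on input, and was at least 2.47-fold over IgG (2.08) and 8.69-fold below input (−3.12). The inflammatory caspase Casp1 was at least 1.22-fold over IgG (1.24). Casp2 differed by 1.00, just short of 2-fold, and the initiator Casp9 by −0.77. Casp6, like Casp8, was far below input. Of the 5 listed caspases compared with input, 4 were at least 2-fold lower in Msi1, beside 38.7% of all probe sets.

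In the BCL2 family most detected probe sets differed from IgG by less than 2-fold. Bcl2l2 (0.15) was the only other antiapoptotic gene detected on Msi1 or IgG, and Bcl2 was detected on input only. The pore-forming genes Bak1 and Bok differed by 0.93 and −0.47. Of 9 BH3-only probe sets detected, 3 were higher. Both probe sets of Bnip3l, a mitophagy receptor, were among them, at least 6.98-fold over IgG (3.52) and at least 1.92-fold. Whether both read the Bnip3l gene was not tested, since ID neighbours were read singly only for members. Pmaip1, which encodes Noxa, an antagonist of Mcl1, exceeded IgG by 1.32, with 7.22 on Msi1, 5.98 on hnRNP, 5.90 on IgG and 6.11 on input, all above the floors. Hrk and Bbc3 differed by −0.36 and −0.58.

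Relatives of Xiap were next compared. In the IAP family 4 of 7 probe sets were higher and 0 lower, beside 19.8% and 7.04% of all, with a median of 1.08. Naip5, a sensor of bacterial flagellin, was at least 3.42-fold higher (1.88), the ubiquitin ligase gene Birc6 at least 1.72-fold (1.33) and Naip2 at least 1.23-fold (1.27). The fourth was Naip6 (1.08, at least 1.23-fold), so of the 4 only Naip5 had a lower bound above 2-fold. Since Naip genes are closely related copies, their separate values are uncertain. The 2 probe sets of Birc2 differed by 0.56 and 0.49.

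The cytochrome c gene Cycs, whose protein triggers the apoptosome, had the largest Msi1 minus IgG difference of the pathway probe sets. Its first probe set read 8.96 on Msi1, 3.85 on hnRNP, 4.19 on IgG and 7.95 on input. All 3 of its probe sets were higher in Msi1 than in IgG, by 4.77 (at least 12.9-fold), 4.27 (at least 3.50-fold) and 2.06 (4.17-fold). Against input they parted, with 1.00, 2.85 and −3.13. ID neighbours were read singly only for members, so whether each of the 3 probe sets reads the Cycs gene was not tested. Apaf1, the partner of cytochrome c in the apoptosome, was at least 2.29-fold over IgG (2.00), while Endog differed by −0.25. In this list 4 of 5 detected probe sets were higher, beside 19.8% of all. Of these 4, however, 3 belong to the single gene Cycs, and the list median of 2.06 is a Cycs value.

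Genes that share the PDCD symbol or bind Pdcd10 were compared last. Of 5 other PDCD genes detected, 3 were higher, Pdcd6 by 2.11 (at least 2.76-fold), Pdcd6ip, which encodes the endosomal protein Alix, by 2.10 (4.28-fold) and the translation inhibitor Pdcd4 by 1.87 (at least 1.76-fold). Pdcd2 and Pdcd11 differed by 0.11 and −0.59. Of 5 detected partners of Pdcd10, 3 were higher. Strn3, a scaffold of the striatin complex that holds Pdcd10, read 7.58 on Msi1, 4.11 on hnRNP, 3.82 on IgG and 6.08 on input, at least 4.97-fold over IgG (3.75) and 2.81-fold over input (1.49). The kinases Stk25 and Stk24 were at least 1.86-fold (1.89) and at least 1.97-fold (1.19) over IgG and 5.69-fold and 4.61-fold below input. Krit1 and Strn differed from IgG by 0.77 and 0.67. Of 4 detected partners of Pawr, 1 was higher, the atypical protein kinase C gene Prkci (1.99, at least 2.10-fold), while Dapk3 differed by 0.14, the detected probe set of Prkcz by −0.09 and Wt1 differed by −0.84.

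Of these pathway probe sets, 4 of 71 (5.63%) exceeded all 3 other arrays by at least 2-fold in Msi1, beside 1.24% of all 14705. They were 2 of the 3 Cycs probe sets, Strn3 and Pmaip1, so 2 of the 4 are of the same gene. Over input, the first Cycs probe set (1.00) and Pmaip1 (1.11) passed 2-fold only narrowly. Both of these and Strn3 (1.49) lay below 1.62, where the central range of the receptor probe sets against input ended. The other Cycs probe set (2.85) lay above it. Of the receptor probe sets, 21.0% passed 2-fold upwards against input, 0.911% against IgG and 1.66% against hnRNP. This count was not repeated under other scalings. The share of all probe sets with the pattern was 0.904% with median centring and 4.17% with loess centring.

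**Figure D5:**
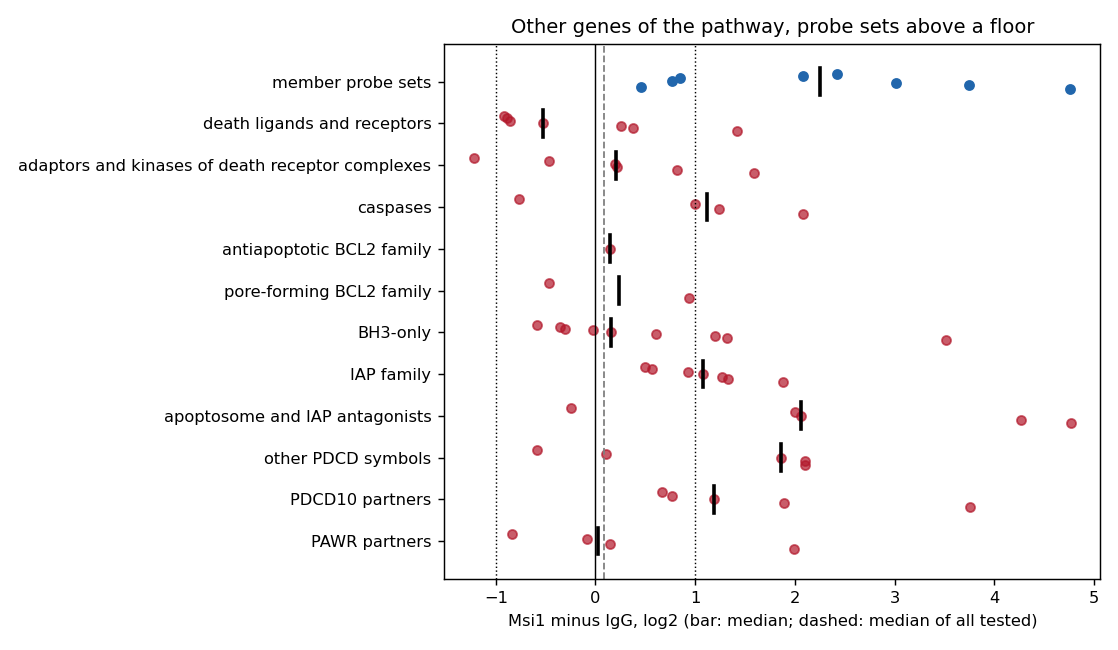
Difference of log2 signal between the Msi1 and IgG arrays (horizontal axis) for the 8 member probe sets detected on Msi1 or IgG (blue) and of the 11 pathway lists (red). Bars are medians, the dashed line is the median of all 11164 probe sets (0.09) and dotted lines mark 2-fold, with medians beyond 1 for the caspases, IAP family, apoptosome, PDCD and Pdcd10 partner lists and below 0 for death ligands and receptors.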

How the data were processed

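Per the labels' protocols, RNA was isolated with QIAzol and RNeasy, and 100 ng per array was made into biotinylated cDNA. The authors deposited 1 log2 value for each probe set on each array. Of tools, affy is named in the submitters' processing notes. How background was corrected, how arrays were normalized and which log base was used are not stated there, and base 2 was inferred from the range, 1.07 to 14.3, so each fold rests on it. Probe sets were named from the platform's annotation, with symbols updated through Entrez identifiers (21553 of 21640 matched). A further 1321 probe sets with several symbols, 0 of them with a member, and 11799 without a symbol entered no count.

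Groups follow the antibody in the labels. Differences were taken for probe sets above the floor on at least 1 array compared and counted at 2-fold. A dimmer value under its floor was replaced by the floor to give a fold as a lower bound. The members and lists were chosen with earlier results of these data known. From each list up to 3 probe sets with the highest and 2 with the lowest Msi1 minus IgG difference were named, and a few others (Bcl2, Naip6) were named after their values were seen. On arrays, signal over the floor stands for depth. Counting was tested on simulated data with little noise and shifts only in probe sets well above the IgG floor. Calls near the floor at the real spread were not tested. The alternatives tried were quantile normalization, median centring, loess centring (span 0.4), no floor or one at the 99th percentile, detection on all arrays compared, thresholds of 1.5-fold and 3-fold, values raised to the floor, and 1 value per gene. The comparison by ID neighbours was added after the data were seen. Python 3.11.15, pandas 2.3.3, numpy 2.4.6, statsmodels 0.14.6 and matplotlib 3.10.9 were used.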

Additional observations from a re-analysis of the deposited data

How the results depend on the processing

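No paired analysis was possible because each group had 1 array. Detection on all arrays compared moved the most counts, since it leaves fewer probe sets. It left 1 of 2 member probe sets higher than IgG in place of 5 of 8 (8.11% of all 5057 then compared), 2 of 2 higher than hnRNP in place of 6 of 8 (7.21% of 5744), 2 of 8 lower than input in place of 4 of 11 (39.1% of 9196) and 1 of 1 higher than all 3 arrays in place of 3 of 11 (0.589% of 3732). Of 18 pathway probe sets, 3 were then higher and 0 lower than IgG, in place of 22 and 1 of 55 (8.11% and 5.54% of all). At 3-fold, 1 member was lower than input (24.8% of all). At that threshold 14 pathway probe sets were higher and 0 lower than IgG (11.3% and 1.26% of all). With values raised to the floor, 2 members were lower than input, and 12 pathway probe sets were higher and 0 lower than IgG. At 1.5-fold, 7 of 55 pathway probe sets were lower than IgG (19.5% of all). At 1.5-fold, too, 1 of 3 members was lower in hnRNP than in IgG (14.5% of all). Quantile normalization gave 5 and 1 for these (15.1% and 10.9% of all). The 99th percentile floor gave 0 pathway probe sets lower (6.33% of all). The Msi1 minus input difference of Mcl1 changed sign with loess centring (0.12 against −1.37), as did that of Cflar when its probe set brightest on input was taken (−0.52 against 3.52). The other counts stayed within 1.5 times. Median centring moved the median Msi1 minus IgG difference over all single-symbol probe sets, −0.18 as deposited, to −0.05, and the median Msi1 minus input difference, 0.17 as deposited, to −0.08. With 1 array a group and most control values near or below background, small differences were not detectable here.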
